A study of Mus musculus with 6 samples.

Results

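Immunoregulatory genes of bone marrow plasma cells, the cytokine genes Il10, Ebi3 and Tgfb1 and the checkpoint genes Lag3 and Cd274, were followed across 6 libraries of sorted long-lived plasma cells. They were chosen by gene symbol, as immunoregulatory genes reported for plasma cells, and all 5 were found among the 13642 genes of the deposited table. Libraries came from C57BL/6J mice with no transgene or treatment named in the labels. The young group was 3 libraries of female mice aged 2 to 3 months, and the old group was 3 libraries of male mice aged 17 to 19 months. Suppliers also differed, the Jackson Laboratory or UCLA for young mice and the National Institute on Aging colony for old mice, so age, sex and supplier cannot be told apart. The sort kept CD138-high cells without B220, IgD, T cell receptor (beta or gamma-delta), CD11b or Gr-1. The labels did not say whether a library was 1 animal or a pool, and the p-values therefore reflect variation among libraries that may in part be technical.

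Plasma cells are known for antibody secretion, but some also make cytokines that restrain other immune cells. IL-10 acts through a receptor built from the products of Il10ra and Il10rb, and through STAT3, to dampen myeloid and T cell activation. Ebi3 encodes a subunit with no cytokine action of its own that pairs with the product of Il12a to form IL-35 or with that of Il27 to form IL-27. TGF-beta 1 is secreted in a latent form, cut by furin and released near cells that carry docking proteins. LAG-3 is a relative of CD4 that binds MHC class II, and PD-L1, the product of Cd274, engages PD-1 on T cells. Plasma cells that carry LAG-3 and secrete IL-10 have been described as natural regulatory plasma cells.

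Values are FPKM as deposited, that is fragments per kilobase of gene and per unit of mapped total. Levels are set side by side between genes below, but the gene lengths used for them were not given. The libraries had 8934 to 10664 genes above 0 in the young group and 11310 to 12049 in the old group, and the smallest values put about 22.4 to 25.3 M and 26.9 to 28.1 M fragments behind them. Plasma cell markers were abundant throughout. The 10 fixed ones (Sdc1, Xbp1, Irf4, Prdm1, Jchain and others) summed to 20256 to 23474 FPKM in young libraries and to 23022 and 23162 in old replicates 1 and 2, against 9121 in old replicate 3. Old replicate 3 also had the highest sums of monocyte, platelet, erythroid, NK cell and dendritic cell markers, so for the 5 genes results are also given without it. Pearson correlation between libraries over the 10687 tested genes was 0.61 to 0.79 on log2(FPKM + 1).

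The sequence just upstream of the start site is shown for Ebi3 and Tgfb1, the cytokine genes whose values spread most between libraries. Both windows hold the 250 bases before the RefSeq start on GRCm38.p6, plus strand. Capitals mark the single match to the NF-kB consensus, searched on both strands, and Tgfb1 had none.
Ebi3, chr17:55952373-55952622: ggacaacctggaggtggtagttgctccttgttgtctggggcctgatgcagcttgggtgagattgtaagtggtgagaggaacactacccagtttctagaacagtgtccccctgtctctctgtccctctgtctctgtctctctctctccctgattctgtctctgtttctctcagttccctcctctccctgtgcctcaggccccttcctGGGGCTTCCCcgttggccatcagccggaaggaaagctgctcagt
Tgfb1, chr7:25686752-25687001: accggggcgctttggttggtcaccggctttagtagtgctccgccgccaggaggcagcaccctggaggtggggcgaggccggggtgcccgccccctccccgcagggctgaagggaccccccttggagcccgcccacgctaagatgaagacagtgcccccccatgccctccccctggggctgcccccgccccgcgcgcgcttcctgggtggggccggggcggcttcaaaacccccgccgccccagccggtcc
The Ebi3 match lies 44 to 35 bases before the start site. Of 32851 upstream windows of this length, 3.90% held such a match. A pair of IRF boxes (TTTC and TTTC with 2 bases between them, found in 2.98% of windows) and a STAT site (TTCNNNGAA, 7.02%) were in neither of the printed windows nor in that of Cd274. The short SMAD box CAGAC, which 42.2% of windows held on either strand, was in those of Ebi3 and Cd274 and not in that of Tgfb1. The Tgfb1 window was 75.2% G and C, against 56.0% for Ebi3 and 50.4% for Cd274. A match is a description of letters and not evidence of binding. Windows of Il10 and Lag3 were not analysed here.

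Transcripts of all 5 genes were found in young and old plasma cell libraries, and limma called none of them different between the age groups. Cd274 was high in each library, at 53.3 FPKM on average in young and 50.9 in old libraries. Lag3 averaged 2.21 times and Il10 1.46 times the young level in old libraries, and Ebi3 was low in all old libraries but both high and nearly absent among young ones. Limma was run over the 10687 genes with a mean of at least 1 FPKM, among them all 5 genes. It called 0 of the 5 at a Benjamini-Hochberg adjusted p under 0.05, and 0 of the 5 had an unadjusted p under 0.05. Over all tested genes percent called was 0 (0 of 10687), while 632, or 5.91%, had an unadjusted limma p under 0.05. Young and old values overlapped for each of the 5 genes, against groups that did not overlap for 12.2% of tested genes. A log2 change below is old minus young on log2(FPKM + 1), and its median over all tested genes was 0.23, with 61.3% of them positive.

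**Figure D1:**
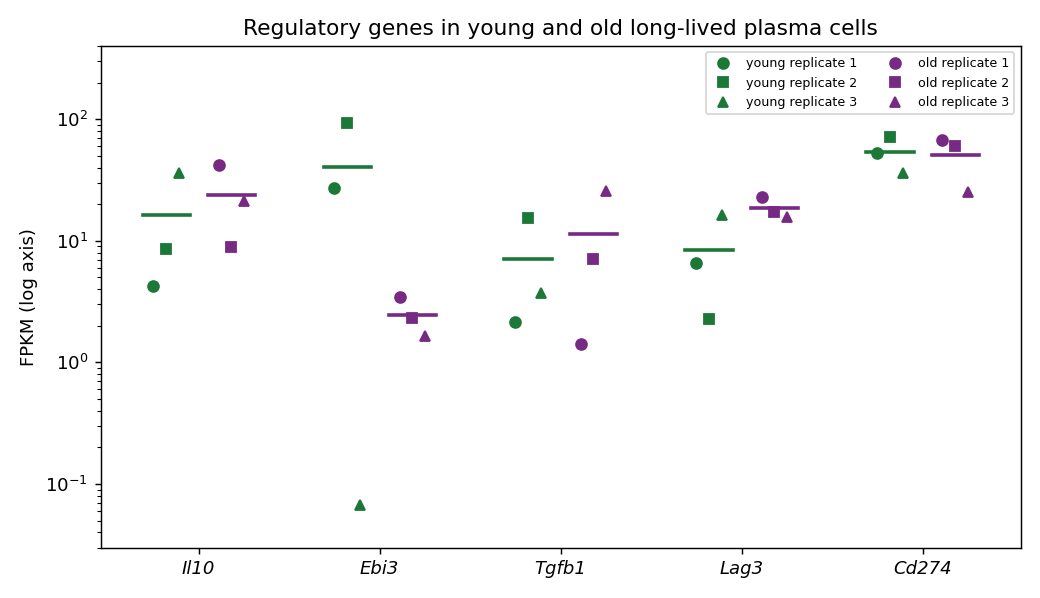
FPKM (log axis) of Il10, Ebi3, Tgfb1, Lag3 and Cd274 in 3 young (green) and 3 old (purple) libraries, one point per library with its replicate number as shape and a line at each group mean. Cd274 stays within 25.3 to 71.7 FPKM, while Ebi3 runs from 0.0673 to 93.1 and takes both its extremes in young libraries.

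Il10 (ENSMUSG00000016529.5) lies on chromosome 1 from 131019845 to 131024974, on the plus strand of GRCm38. Its level was 4.25, 8.62 and 36.3 FPKM in young replicates 1 to 3 and 41.7, 8.96 and 21.2 in old replicates 1 to 3. The highest values were thus in one library of each group, old replicate 1 and young replicate 3, and the groups overlapped almost fully. About 136 to 1470 fragments stood behind these values. Il10 ranked above 47.8% of all genes in young replicate 1 and above 91.3% in old replicate 1, so it was among the more abundant transcripts of some libraries. Group means were 16.4 ± 17.4 FPKM among young and 24.0 ± 16.6 among old libraries (SD, n = 3). The log2 change was 0.78 ± 0.81 (SE; 95% interval -1.03 to 2.58; limma adjusted p = 0.869). It was positive in each of 16 alternatives, with extremes of 0.16 (young replicate 1 left out) and 1.57 (young replicate 3 left out).

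Transcripts of both chains of the IL-10 receptor were found in these libraries. Il10rb, the chain shared with other cytokine receptors, was 38.3 ± 17.6 FPKM among young and 20.5 ± 12.6 among old libraries (SD, n = 3). The IL-10-specific chain Il10ra was at 10.4, 0.631 and 10.1 FPKM in young and at 2.63, 1.65 and 27.5 in old libraries. Its highest value was in old replicate 3, the library with the lowest plasma cell marker sum and the highest monocyte marker sum (712 FPKM, against 96.8 to 352 in the others). The part of myeloid RNA in that value was not tested. The signalling genes Jak1, Tyk2 and Stat3 were above 9 FPKM in all 6 libraries. Tyk2 was 33.2 ± 3.47 in young and 23.8 ± 5.53 in old libraries.

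Of 12 genes fixed for the IL-10 receptor and its signal, 11 were tested and limma called 0. Their log2 changes were positive for 5 and negative for 6, with a median of -0.03 against 0.23 for all tested genes. Bcl3, an IL-10-inducible regulator of NF-kB, was at 13.7, 16.4 and 64.7 FPKM in young and at 8.23, 5.01 and 2.38 in old libraries (limma adjusted p = 0.736). Old values of Bcl3 lay below all young ones. Hmox1, the haem-degrading enzyme that IL-10 induces in macrophages, was at 6.19, 19.5 and 25.5 against 102, 156 and 19.3 FPKM (limma adjusted p = 0.758). Old replicates 1 and 2 were far above the rest for Hmox1, and old replicate 3 was within the young range. Socs3, the usual early STAT3 target, was listed at 0 in 5 libraries and at 1.00 in old replicate 2. Il19, the IL-10 family gene next to Il10 on chromosome 1, was not analysed here, nor were the other 5 fixed cytokine genes of that family.

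Transcription factors that act on Il10 ranged from abundant to nearly absent. Irf4 and Prdm1, which also define plasma cells, were at 151 to 348 and 45.1 to 154 FPKM over the 6 libraries. For Maf, an inducer of Il10 in T cells and macrophages, 5 libraries were listed at 0 and young replicate 2 at 0.0468. Of 15 such factors 13 were tested, with 5 positive and 8 negative log2 changes, a median of -0.30 and 0 limma calls. Ahr, the aryl hydrocarbon receptor, was 13.5 ± 3.37 FPKM among young and 3.10 ± 0.885 among old libraries (SD, n = 3; limma adjusted p = 0.793). Its groups did not overlap, as for 3.42% of tested genes with old below young. Batf was at 129, 2.07 and 133 FPKM in young and at 5.15, 6.04 and 17.9 in old libraries. Young replicate 2, which had the lowest Batf, held 8.62 FPKM of Il10, and old replicate 1, which had the most Il10, held 5.15 of Batf. Young replicates 1 and 3, which had the most Batf, held 4.25 and 36.3 FPKM of Il10. The relation of Batf to Il10 was not tested. Egr2, a zinc finger factor of anergic and regulatory T cells, was at 0, 0.0110 and 0 FPKM in young and at 14.0, 0.239 and 5.99 in old libraries (limma adjusted p = 0.839).

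Ebi3 (ENSMUSG00000003206.6; chromosome 17, 55952640 to 55957022, plus strand, by an annotation that holds another version of this gene's identifier) had the widest spread of the 5 genes. It was at 27.0, 93.1 and 0.0673 FPKM in young replicates 1 to 3 and at 3.43, 2.31 and 1.65 in old replicates 1 to 3. The values of 2 young libraries were above every old one and the third was below every old one. Young replicate 2 was thus 1384 times young replicate 3, while the old libraries lay within a factor of 2.07. In young replicate 3 the value rests on about 2 fragments, against about 2717 in young replicate 2 and 51 to 106 in old libraries. Its spread within groups (pooled SD of 2.38 on the log2 scale) exceeded that of 98.5% of tested genes.

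The mean of Ebi3 was 40.1 ± 47.9 FPKM among young and 2.46 ± 0.897 among old libraries (SD, n = 3). The log2 change was -2.06 ± 1.40 (SE; 95% interval -5.18 to 1.06; limma adjusted p = 0.851). Leaving out young replicate 3 moved it to -3.92 and leaving out young replicate 2 to -0.69, and the limma adjusted p ranged from 0.472 to 0.962 over 16 alternatives, all of them negative in direction. Gm16712, an antisense gene that overlaps Ebi3 in the annotation, was not analysed here, and whether counting used strand was not given in the sources used here. The nearest coding genes, Zfp119b and Yju2, were both listed at 0 in young replicate 2, where Ebi3 was highest.

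The measured partner subunit of Ebi3 had its highest values in other libraries. Il12a, the partner in IL-35, was at 15.7, 0 and 27.8 FPKM in young and at 4.56, 1.47 and 3.98 in old libraries. In young replicate 2 Ebi3 was highest with Il12a listed at 0, and in young replicate 3 Il12a was highest with Ebi3 near 0. Young replicate 1 was the one library with both above 15 FPKM. Il12a had a limma adjusted p of 0.898, and Il27 and Il12b were not analysed here. Il6st, the signalling chain gp130 used by IL-27 and IL-35, was at 19.5 to 42.2 FPKM in all 6 libraries. Il27ra, the IL-27 receptor, was at 0, 3.67 and 0 in young and at 0.0195, 1.12 and 5.38 in old libraries. Il12rb1, a receptor chain of IL-12 and IL-23, was listed at 0 throughout the young group and at 2.36, 0.205 and 4.75 in the old group (limma adjusted p = 0.841). Of 10 IL-12 family genes fixed, 4 were tested, 2 positive and 2 negative, with a median of 0.14 and 0 limma calls.

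Tgfb1 (ENSMUSG00000002603.15; chromosome 7, 25687002 to 25705077, plus strand) was the lowest of the 5 by its mean over libraries, 9.30 ± 9.62 FPKM (SD, n = 6). It was at 2.15, 15.5 and 3.73 FPKM in young and at 1.43, 7.12 and 25.9 in old libraries. Old replicates held both the lowest and the highest value, an 18.1-fold range within one group. About 194 to 3521 fragments stood behind them. Young and old means were 7.12 ± 7.28 and 11.5 ± 12.8 FPKM (SD, n = 3). The log2 change was 0.37 ± 1.03 (SE; 95% interval -1.92 to 2.66; limma adjusted p = 0.969). Without old replicate 3 it turned to -0.49, and without young replicate 1 to -0.12.

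Old replicate 3, which held the most Tgfb1, also had the highest sum of 7 platelet and megakaryocyte markers, 53.4 FPKM against 9.93 to 21.4 in the others. Of these, Gp9 was at 24.7 FPKM and Pf4 at 3.65 there, and both were listed at 0 in the other 5 libraries. Platelets and myeloid cells are rich sources of TGF-beta 1, and their part in the Tgfb1 value of that library was not tested. Young replicate 2, the second highest in Tgfb1, had a platelet marker sum of 11.8 FPKM, within the range of the other young libraries.

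Genes that process and hold latent TGF-beta 1 differed in level between libraries. Furin, which cuts the precursor, was at 7.30, 0.418 and 3.63 FPKM in young and at 8.14, 12.7 and 11.6 in old libraries (limma adjusted p = 0.841). All old Furin values lay above the young ones, as for 8.78% of tested genes. Nrros, a docking protein of myeloid cells and microglia, was at 13.8, 0.0423 and 6.87 against 15.2, 19.1 and 12.7 FPKM. Lrrc32, the docking protein GARP of regulatory T cells and platelets, was at most 0.230 FPKM in any library. Tgfb3 was at 3.27, 20.8 and 0 FPKM in young and at 0, 0.0932 and 0 in old libraries, so that its highest value, like that of Ebi3, was in young replicate 2. Of 15 ligand and activation genes 7 were tested, 5 positive and 2 negative, with a median of 0.50 and 0 limma calls.

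The signalling receptors Tgfbr1 and Tgfbr2 were present in every library. Tgfbr1 was 15.7 and 15.2 FPKM on average in young and old libraries, within 10.1 to 21.8 over all libraries, and Tgfbr2 was within 13.4 to 23.8. The coreceptors Tgfbr3 and Eng ran from 0 to 5.03 and from 0 to 5.06, and Acvrl1 was at most 1.17. Smurf1, a ubiquitin ligase that removes the receptors, was 0.647 ± 0.493 among young and 4.64 ± 2.36 FPKM among old libraries (SD, n = 3), without overlap (limma adjusted p = 0.839). Smad7, the inhibitory SMAD, was at 9.27, 18.1 and 0 against 4.93, 2.26 and 3.10 FPKM. Smad4, the shared SMAD, was 14.05 ± 9.87 against 23.9 ± 7.60, and Smad3 was 7.68 ± 0.793 against 8.24 ± 6.18. Of 18 receptor and SMAD genes 13 were tested, with 5 positive and 8 negative, a median of -0.07 and 0 limma calls.

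**Figure D2:**
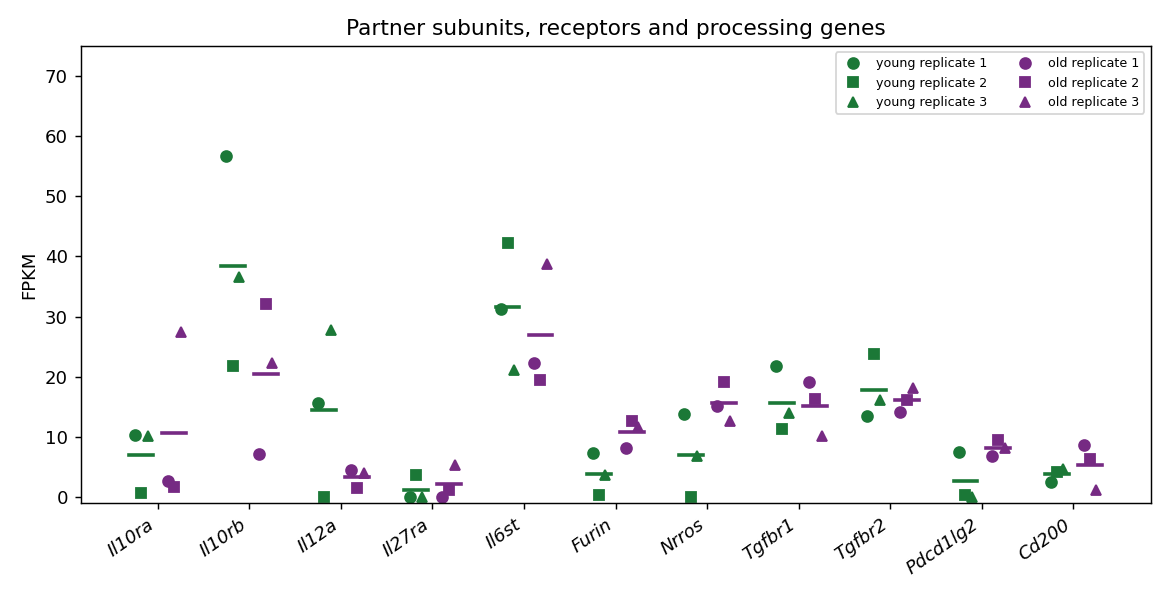
FPKM (linear axis) of receptor, partner and processing genes of Il10, Ebi3, Tgfb1 and Cd274 in each library, with colours and shapes as in the plot of the regulatory genes and a line at each group mean. Il12a is listed at 0 in young replicate 2 and reaches 27.8 in young replicate 3, and Tgfbr2 stays between 13.4 and 23.8.

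Lag3 (ENSMUSG00000030124.2; chromosome 6, 124904361 to 124911705, minus strand) came nearest to a separation by age group. It was at 6.55, 2.29 and 16.4 FPKM in young and at 22.8, 17.3 and 15.8 in old libraries. Young replicate 3 exceeded old replicate 3 by a small margin, and young replicates 1 and 2 lay below all old libraries. The old values were tight, within a factor of 1.45, against 7.16 among young ones. Means were 8.43 ± 7.26 FPKM among young and 18.6 ± 3.69 among old libraries (SD, n = 3), 2.21 times as high in old.

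The log2 change of Lag3 was 1.36 ± 0.70 (SE; 95% interval -0.20 to 2.92), with an unadjusted limma p of 0.0816 and a limma adjusted p = 0.841. By p it ranked 1030 among 10687 genes. It was positive in all 16 alternatives, with extremes of 0.76 (young replicate 2 left out) and 1.96 (young replicate 3 left out). Two-sided exact permutation tests of the 5 genes gave p = 0.2 for Lag3, 0.4 for Il10 and Ebi3 and 0.8 for Tgfb1 and Cd274, where 0.1 is the smallest p that 3 against 3 allows. Adjusted over the 5 tests they were 0.667 to 0.8. This design could not reach 0.05 by such a test, so these p-values rank the differences and say no more.

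LAG-3 is also found on T cells, NK cells and plasmacytoid dendritic cells, whose markers are given beside it. Of 10 T cell markers, 7 were under 1 FPKM in all young libraries, and Cd3e was at 0 in the young libraries and old replicate 1, 2.73 in old replicate 2 and 0.934 in old replicate 3. Summed T cell markers were 10.8 to 23.5 FPKM in young and 12.7 to 16.0 in old libraries. Cd4 was the largest term in each young library and in old replicate 3. NK cell markers summed to 0.165, 36.6 and 0.00646 in young and 14.1, 31.3 and 45.6 in old libraries. The largest term was Gzma in young replicate 2 (32.0) and Prf1 in old replicates 1 and 2 (9.31 and 30.2). In old replicate 3 it was Ncr1 (12.3), and Klrb1c and Klrd1 were above 0 there alone, at 1.33 and 1.11. The NK cell marker sum was near 0 in young replicate 3, where Lag3 was at 16.4. The part of NK cells in the Lag3 values was not tested. Plasmacytoid dendritic cell markers summed to 305 to 585 in young and 276 to 336 in old libraries. Ly6d, which other B lineage cells also express, was the largest term in all 6 of these sums. Single members went both ways. Cox6a2 was at 0, 12.1 and 0 FPKM in young and at 119, 24.2 and 48.4 in old libraries. Pacsin1 was at 0.441, 2.03 and 0 against 4.43, 4.82 and 8.06. Ly6d and Ccr9 were lower in every old library than in any young one, and Siglech, Bst2 and Tcf4 overlapped. The part of plasmacytoid dendritic cells in the Lag3 values was not tested. Fewer cells of a type and less RNA per cell cannot be told apart in such bulk samples.

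Cd4, the structural relative that lies 16140 bases from Lag3 on the same strand, was at 23.4, 8.91 and 8.34 FPKM in young and at 5.11, 2.00 and 9.44 in old libraries. Lag3 was lower than Cd4 in young replicates 1 and 2 and higher in the other 4 libraries. Ptms, on the other side of Lag3 and 1976 bases away, was at 56.5 to 91.3 FPKM in all libraries.

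Cd274 (ENSMUSG00000016496.7; chromosome 19, 29367455 to 29388095, plus strand) was the most abundant and the steadiest of the 5. It was at 52.2, 71.7 and 36.0 FPKM in young and at 67.0, 60.3 and 25.3 in old libraries, on about 2470 to 6570 fragments each. It stood above 82.6% to 95.3% of all genes in each library. Its 2.84-fold range over the 6 libraries was the narrowest of the 5, and its pooled within-group SD exceeded that of 29.2% of tested genes. Group means were 53.3 ± 17.9 and 50.9 ± 22.4 FPKM (SD, n = 3). The log2 change was -0.13 ± 0.47 (SE; 95% interval -1.17 to 0.91; limma adjusted p = 0.980). Its sign turned without old replicate 3 (0.30) or young replicate 2 (0.11).

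Old replicate 3, where Cd274 was lowest, had the lowest sum of plasma cell markers, and Sdc1 and Irf4 were lowest there too, at 174 and 151 FPKM. Without it the old libraries were at 60.3 and 67.0 FPKM, within the young range. The antisense gene AC119228.1, which overlaps Cd274, was not analysed here. Plgrkt starts 65 bases from Cd274 on the opposite strand and was at 42.1, 44.4 and 16.9 FPKM in young and 19.9, 33.5 and 9.95 in old libraries. Both Plgrkt and Cd274 had their highest value in young replicate 2 and their lowest in old replicate 3.

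Pdcd1lg2, the gene of the second PD-1 ligand PD-L2, lies 22824 bases from Cd274 and had another pattern. It was at 7.45, 0.356 and 0 FPKM in young and at 6.82, 9.54 and 8.11 in old libraries (limma adjusted p = 0.839). All old libraries and young replicate 1 were above 6 FPKM, and the other young ones were near 0. Cd274 exceeded it in every library. Pdcd1, the receptor PD-1, was above 1 FPKM in old replicate 2 alone, at 3.48. Of 15 genes that act on Cd274, among them the interferon-gamma pathway and CMTM genes, 14 were tested, with 5 positive and 9 negative, a median of -0.21 and 0 limma calls. Irf1, the interferon-induced activator of Cd274, was 32.8 ± 14.1 among young and 24.4 ± 8.69 FPKM among old libraries (SD, n = 3). Its highest and lowest values, 49.1 in young replicate 2 and 14.6 in old replicate 3, were in the same libraries as those of Cd274. Cmtm4, a stabiliser of PD-L1, was at 0.0689, 0 and 0 against 2.91, 1.22 and 4.14 FPKM (limma adjusted p = 0.839), and its homologue Cmtm6 was within 4.98 to 29.5. Spop was at 75.4, 52.0 and 33.6 FPKM against 55.9, 103 and 67.4, and Ifngr1 was 8.60 ± 4.08 against 16.9 ± 18.1.

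**Figure D3:**
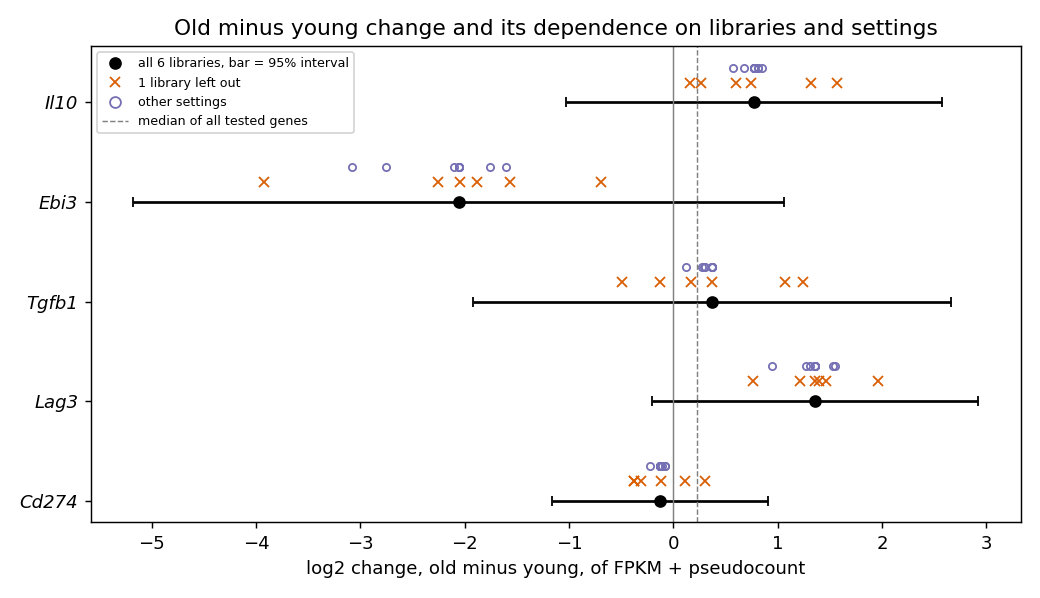
Log2 change (old minus young, FPKM plus pseudocount) of the 5 genes, with the 95% limma interval over all 6 libraries (black), the values with 1 library left out (crosses) and those under 10 other settings (circles). All 5 intervals include 0, and leaving out single libraries turns the sign for Tgfb1 and Cd274.

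Other checkpoint genes were expressed beside Cd274. Vsir (VISTA) was at 37.2 to 80.1 FPKM, Tnfrsf14 (HVEM) at 20.04 to 53.7 and the receptor Btla at 18.8 to 49.4 over the 6 libraries. Entpd1, the ectonucleotidase CD39, was 35.5 ± 16.4 among young and 64.1 ± 19.6 FPKM among old libraries (SD, n = 3), and its partner enzyme Nt5e (CD73) was at 0, 1.20 and 0 against 3.33, 1.00 and 1.51. Entpd1 had a limma adjusted p of 0.839 and Nt5e of 0.854. Cd52 was 281 ± 138 against 176 ± 85.7 FPKM. Cd86, a costimulatory ligand of activated B cells, was at most 0.386 FPKM. Of 20 checkpoint ligand and enzyme genes 14 were tested, 10 positive and 4 negative, with a median of 0.35, beside 61.3% positive over all tested genes.

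Inhibitory receptors had a median of 0.90 over 12 tested of 16, with 8 positive and 4 negative and 0 limma calls. The median was 0.39 without young replicate 3 and 0.66 without old replicate 3. With no filter on low values it was 0.51, since the filter kept Cd200r1 only through its old libraries. Lilrb4a, an inhibitory receptor of myeloid cells and plasma cells, was at 1.21, 8.37 and 0 FPKM in young and at 11.03, 17.8 and 84.6 in old libraries (limma adjusted p = 0.736). Cd200r1 was at 0 throughout the young group and at 0.218, 4.22 and 8.79 in the old group. Both were highest in old replicate 3, where the summed monocyte markers were also highest though 3 of the 9 (Cd68, Ly6c2 and Fcgr1) were higher elsewhere, and the part of myeloid RNA was not tested. In old replicates 1 and 2 alone Lilrb4a was still above all young values. So was the monocyte marker Lyz2, at 179 and 196 FPKM against 26.7, 97.1 and 99.1, while no other monocyte marker was in both. Tigit was at 23.2, 22.7 and 3.38 against 35.7, 51.6 and 14.2, and Ctla4 at 8.72, 12.97 and 34.1 against 54.7, 19.8 and 3.00. The highest Ctla4 value was in old replicate 1, which also had the highest Lag3 and Il10, and the largest sum of the 7 regulatory T cell markers, 105 FPKM against 16.2 to 39.2 in the others. Of these markers, which include Ctla4, Tnfrsf4, Tnfrsf18 and Foxp3 were at 23.6, 20.99 and 5.33 FPKM in old replicate 1, Il2ra and Ikzf2 at 0.0270 and 0.00313, and Ikzf4 and the T cell gene Cd3e at 0. In young replicate 3, which had the second highest Il10, the other 6 markers beside Ctla4 were at 0. The 9 B cell markers also had their largest sum in old replicate 1, 718 FPKM against 232 to 601 in the others. Of these, Ms4a1 was at 2.68, 6.15 and 1.41 FPKM in young and at 25.3, 15.5 and 6.31 in old libraries. Blk was at 11.0, 15.4 and 2.56 against 44.9, 43.6 and 16.1. Pax5 was lower in every old library by a small margin, and the other B cell markers overlapped. The part of regulatory T cells or B cells in these values was not tested. Fcgr2b, the inhibitory Fc receptor of B lineage cells, was 13.8 ± 12.8 against 24.05 ± 4.19 FPKM.

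Surface genes of a list fixed for regulatory plasma cells and related B lineage cells went both ways. Cd200 was at 2.56, 4.17 and 4.59 FPKM in young and at 8.67, 6.34 and 1.101 in old libraries, lowest in old replicate 3. Havcr1 (TIM-1), a marker of regulatory B cells, was at 0.0178, 0 and 0.0194 in young and at 24.7, 3.27 and 4.35 in old libraries (limma adjusted p = 0.736). Cd1d1, which presents lipids, was 10.1 ± 5.61 against 21.9 ± 4.56 FPKM, without overlap (limma adjusted p = 0.839). Of 10 genes 8 were tested, 5 positive and 3 negative, with a median of 0.24 and 0 limma calls. That median ranged from 0.06 without old replicate 2 and 0.07 without young replicate 1 to 0.66 without old replicate 3.

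Other cytokine genes of B lineage cells had a median of -0.19 over 6 tested of 14, with 3 positive and 3 negative and 0 limma calls. Ltb was at 41.5, 24.8 and 19.6 FPKM in young and at 0.0234, 7.38 and 10.7 in old libraries, without overlap (limma adjusted p = 0.746). Il18 was at 4.22, 46.0 and 6.31 against 12.96, 0.995 and 0.527, highest in young replicate 2 like Ebi3 and Tgfb3. Tnf was at 0 throughout the young group and at 0.0224, 8.46 and 0.990 in the old group, and Mif was 40.5 ± 44.3 against 66.3 ± 56.0. Il10, above 4 FPKM in all 6 libraries, thus stood beside Il6 and Csf2, of which Il6 was at most 2.44 and Csf2 at most 0.0713 FPKM. Over the 96 tested genes of all these lists limma called 0, and 5 had an unadjusted p under 0.05 with higher and 3 with lower old values, against 4.66% and 1.25% of all tested genes. Groups did not overlap for 10 with old above and 3 with old below, against 8.78% and 3.42% of all tested genes. Of the 10, Egr2, Il12rb1, Cd200r1, Tnf, Havcr1, Cmtm4 and Smurf1 passed the filter on low values only through their old libraries.

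**Figure D4:**
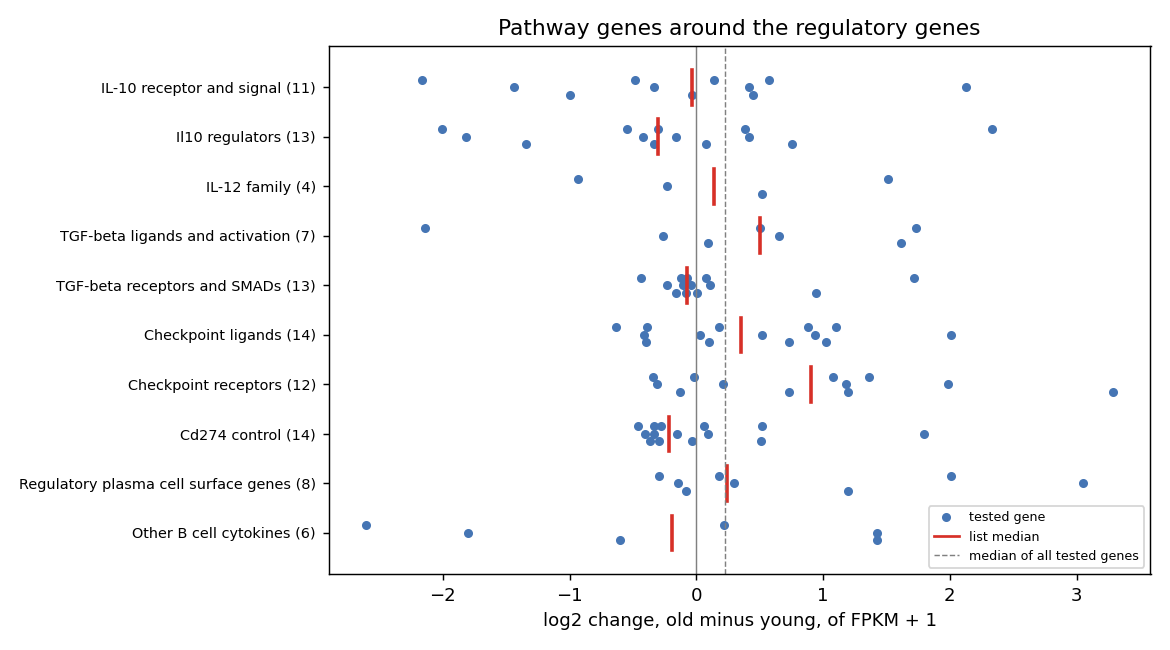
Log2 change (old minus young, FPKM + 1) of each tested gene in 10 pathway lists, with the list median in red, the median of all tested genes dashed and the number of tested genes in brackets. List medians run from -0.30 (Il10 regulators) to 0.90 (checkpoint receptors), and single genes spread over -2.61 to 3.29.

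By mean log2(FPKM + 1) over the 6 libraries the 5 genes were ordered Cd274, Il10, Lag3, Tgfb1 and Ebi3, at 5.64, 4.01, 3.60, 2.83 and 2.79. Cd274 exceeded Il10 in 5 of 6 libraries, by 1.63 ± 1.49 on the log2 scale (SD of the paired difference; two-sided exact sign-flip permutation p = 0.0625, adjusted over 4 neighbouring pairs 0.25). The exception was young replicate 3, where the levels were 36.0 and 36.3 FPKM. Il10 exceeded Lag3 in 4 of 6 libraries (exact permutation p = 0.344, adjusted 0.458) and Lag3 exceeded Tgfb1 in 4 of 6 (exact permutation p = 0.344, adjusted 0.458). Tgfb1 and Ebi3 were the closest neighbours, with Tgfb1 higher in 3 of 6 (exact permutation p = 0.969). The smallest p that 6 pairs allow is 0.0312, and no neighbouring pair passed 0.05. The order also rests on the gene lengths used for FPKM, which were not given.

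The 5 genes did not peak in the same libraries. Young replicate 2 held the highest Ebi3 and Cd274 and the lowest Lag3, old replicate 1 the highest Il10 and Lag3 and the lowest Tgfb1, and old replicate 3 the highest Tgfb1 and the lowest Cd274. Young replicate 1 held the lowest Il10, and young replicate 3 the lowest Ebi3. Il10 and Lag3 shared 2 of their 3 highest libraries, old replicate 1 and young replicate 3.

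The genes whose pattern over the 6 libraries was most alike are given by Pearson r on log2(FPKM + 1), as the 3 highest of 10686 for each gene and with no test, since 6 points and so many genes give high values readily. For Il10 they were 3110040N11Rik (0.979), Mtrf1l (0.979) and Ncln (0.973), and 7 genes had an r over 0.95. For Ebi3 they were Eml4 (0.988), Znhit6 (0.982) and Cops7b (0.980), for Tgfb1 Fbxl14 (0.980), Il27ra (0.971) and Plppr3 (0.969), and for Cd274 Fas (0.973), Osbpl3 (0.973) and Ccdc84 (0.972). Lag3 had the most genes over 0.95, 38, led by Tspyl1 (0.995), Mt1 (0.990) and Avl9 (0.989). Mt1, a metallothionein, was at 10.1, 0.349 and 57.4 FPKM in young and at 125, 120 and 88.8 in old libraries. Fas, the death receptor, was at 12.0, 44.6 and 2.89 against 19.3, 13.8 and 1.13 FPKM, highest in young replicate 2 and lowest in old replicate 3, as Cd274 was.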

How the data were processed

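Sorted long-lived plasma cells from bone marrow were profiled by RNA-seq in 3 young and 3 old libraries, grouped by sample titles. Per the labels' protocols, libraries were made from 5 ng of total RNA with a stranded template-switching kit that removes ribosomal cDNA. The authors deposited FPKM values per gene. The submitters' processing notes name bcl2fastq 2.17, STAR and DESeq2 without roles, and GRCm38 and mm10. Counter, annotation release and strand setting are not given in the sources used here.

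FPKM are not counts. Low values were multiplied by merged exon length (GENCODE M21) and their lowest cluster was taken as 1 fragment, which gives the approximate fragment numbers. These cover counting error only, since amplified reads are not independent molecules. Differences were tested with limma 3.58.1 (R 4.3.3, lmFit and eBayes with trend) on log2(FPKM + 1) over genes with a mean of at least 1 FPKM, two-sided, with Benjamini-Hochberg adjustment over all 10687 genes at 0.05. The code was tested on simulated data with less spread than the real data and larger changes than those of the 5 genes. That run checks the code and not the power of the design. Permutation and sign-flip tests were exact, and the order of levels was tested after the values were seen. Genes and lists were chosen with earlier results of these data known. Named genes were the 5 genes, up to 4 tested genes of smallest p per list, fixed partners, neighbours, markers and the 3 most alike genes. Other genes given as values were chosen after their values were seen. Alternatives were other pseudocounts, filters, scalings, moderation, library weights, a replicate block and leaving out each library. Promoter sequences are from RefSeq (GRCm38.p6), which held 3 of the 5 genes. Tables were made with Python 3.11.15 and pandas 2.3.3.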

Additional observations from a re-analysis of the deposited data

How the results depend on the processing

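Limma called 0 genes with all libraries and 1 gene, Hist1h3f, under quantile normalization, robust moderation or array weights, and called 0 of the 5 regulatory genes under each of the 16 alternatives. Il10, Ebi3 and Lag3 kept their direction in all 16. Tgfb1 and Cd274 kept theirs in 14. With single libraries left out the log2 change ranged from 0.16 to 1.57 for Il10, -3.92 to -0.69 for Ebi3, -0.49 to 1.24 for Tgfb1, 0.76 to 1.96 for Lag3 and -0.38 to 0.30 for Cd274. The reversals were Tgfb1 without old replicate 3 (-0.49) and young replicate 1 (-0.12), and Cd274 without old replicate 3 (0.30) and young replicate 2 (0.11), and the cause was not tested. List medians moved with the setting: 0.39 to 1.07 for checkpoint receptors (0.51 with array weights), 0.06 to 0.75 for regulatory plasma cell surface genes (highest at a mean FPKM of 5 or more), 0.06 to 0.72 for checkpoint ligands, -0.38 to 0.22 for the IL-10 receptor and signal and -0.45 to 0.29 for TGF-beta receptors and SMADs. With no filter the list of other B cell cytokines had a median of 0.22, and the IL-12 family median was -0.59 at a mean of at least 5 FPKM. That of TGF-beta ligands and activation was 1.62 with the higher filter and -0.04 after quantile normalization, which moved the median of all tested genes from 0.23 to -0.01. Same-numbered young and old libraries did not deviate together (correlations of -0.03, 0.02 and -0.0041 over genes). The sample titles do not say whether the numbers pair samples, and deviations from means of 3 libraries cannot settle it. With a replicate block limma called 0 genes, the log2 changes were the same by construction (0.78, -2.06, 0.37, 1.36 and -0.13 in the order above) and it changed no other call. With 3 libraries a group the 95% intervals of the 5 log2 changes leave room for changes of either sign, and a low value such as that of Ebi3 in young replicate 3 rests on about 2 fragments.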
